A study of Mus musculus with 18 samples.

Results

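The comparison described here is that of memory with naive CD8 T cells taken directly ex vivo, without culture. Its members are the 4 arrays titled as TIM memory CD8 cells ex vivo and the 2 titled as naive CD8 cells ex vivo, 6 of the 18 mouse arrays of the series. Both kinds of cell came from F5 mice, which carry a transgenic T cell receptor, on the C57Bl/6 genotype, and both were sorted from spleen by flow cytometry. The naive cells received no stimulus named in the labels. TIM memory cells came from naive F5 mice that had been immunised 2 times with the peptide NP68, and they were analysed at day 45. The titles call these 6 arrays biological replicates, and the design text speaks of 2 sorted naive and 4 sorted memory populations. The sort markers, the age and the sex of the mice, and whether animals were pooled are not given in the sources used here. Both groups came from mice with this transgenic receptor, so they do not sample the range of receptors of a normal spleen. Whether some cells also carried other receptor chains was not tested. Of 13770 genes tested on the arrays, 13294 are autosomal, and the description runs over those.

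A naive CD8 T cell has not met its antigen, recirculates through lymphoid organs and makes little cytokine. After antigen and contraction a memory cell remains that divides slowly, keeps genes of effector function open to rapid transcription, and carries surface receptors of activated T cells and natural killer (NK) cells. CD44 on memory cells, and the transcription factors T-bet and Eomes against TCF-1 and LEF-1, are the usual marks of these states.

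The values are log2 RMA values, 1 per array, and a difference of 1 on this scale is a 2-fold change. The CD8 and T cell markers of the arrays fit the labels for either group. Cd8a, a chain of the CD8 co-receptor, was at 12.47 and 12.14 on the naive arrays and 12.35, 11.91, 12.23 and 12.09 on the memory arrays, and Cd3e, a chain of the receptor complex, at 9.82 and 9.70 on the naive arrays and 9.82, 9.85, 9.36 and 9.65 on the memory arrays. Array medians were 4.64 on both naive arrays and 4.69 to 4.76 on the memory arrays, and the 3' minus 5' difference of Gapdh, a measure of RNA and labelling quality, was 2.56 to 2.69 and 2.07 to 2.62. Pairs of memory arrays correlated at r = 0.988 to 0.991 over the genes tested, the naive pair at 0.989, and naive with memory arrays at 0.974 to 0.984. Xist, transcribed from the inactive X chromosome of female cells, was at 12.02, 12.75 and 11.78 on memory arrays 1, 2 and 4, and at 4.40 on memory array 3, 4.35 and 4.40 on the naive arrays. The Y-linked gene Eif2s3y was at 10.46 and 10.18 on the naive arrays and at 9.24, 6.12, 10.12 and 2.88 on the memory arrays. Memory array 3 is thus the only memory array with the naive arrays' pattern of sex-linked genes, and arrays 1 and 2 carry both signals. Counts with memory array 3 as the only memory array stand beside the main ones. Among the 387 X-linked genes tested, 22 passed the same test (5.68%), 5 higher and 17 lower in memory cells. They are named nowhere else.

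Markers of other cells also differed among the memory arrays. Slc4a1, the anion exchanger of red cells, was at 4.06 and 4.88 on the naive arrays and 10.48, 7.03, 8.62 and 8.24 on the memory arrays, and Klf1, a transcription factor of red cell precursors, at 5.14 and 4.93 on the naive arrays and 6.76, 5.07, 5.15 and 5.31 on the memory arrays. Array 1 was the highest memory array for both, and Slc4a1 was above the naive arrays on every memory array. Hba-a1, a haemoglobin gene of the same marker list as Klf1, lay under the filter value of 4.06 on every array and was not tested. It was at 3.65 and 3.26 on the naive arrays and 3.39, 3.61, 3.52 and 3.29 on the memory arrays. Jchain, the joining chain of secreted antibody, was at 3.64 and 3.73 on the naive arrays and 7.65, 7.23, 3.90 and 4.72 on the memory arrays, and the class II gene H2-Aa at 4.24 and 3.99 on the naive arrays and 7.49, 7.30, 4.89 and 5.37 on the memory arrays, so memory arrays 1 and 2 stood apart here. None of Slc4a1, Klf1, Jchain and H2-Aa passed the test described below.
As whole lists, the mean level of the 6 B cell markers tested was 5.67 to 5.72 on the naive arrays and 6.05 to 6.60 on the memory arrays, and 1 of them, Ms4a1, which encodes CD20, passed as higher. The 9 class II and dendritic cell markers had means of 5.40 to 5.43 and 5.80 to 6.49, the 4 plasma cell markers 6.22 to 6.42 and 6.53 to 7.62, the 9 myeloid markers 4.29 to 4.41 and 4.71 to 4.80, the 5 neutrophil markers 3.96 and 4.40 to 4.58, the 4 platelet markers 5.42 to 5.57 and 5.70 to 6.07, and the 4 NK cell markers 3.76 to 3.83 and 4.11 to 4.84. None of these passed as single genes apart from Ms4a1. Of 3 markers tested each for CD4 and for regulatory T cells (Treg), Trat1 was lower and Ctla4 higher, both described below among the CD8 genes. The Treg gene Foxp3 lay under the filter value on every array. In bulk samples, more cells of a type and more RNA per cell cannot be told apart, and the part of these markers in the results below was not tested.

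**Figure D1:**
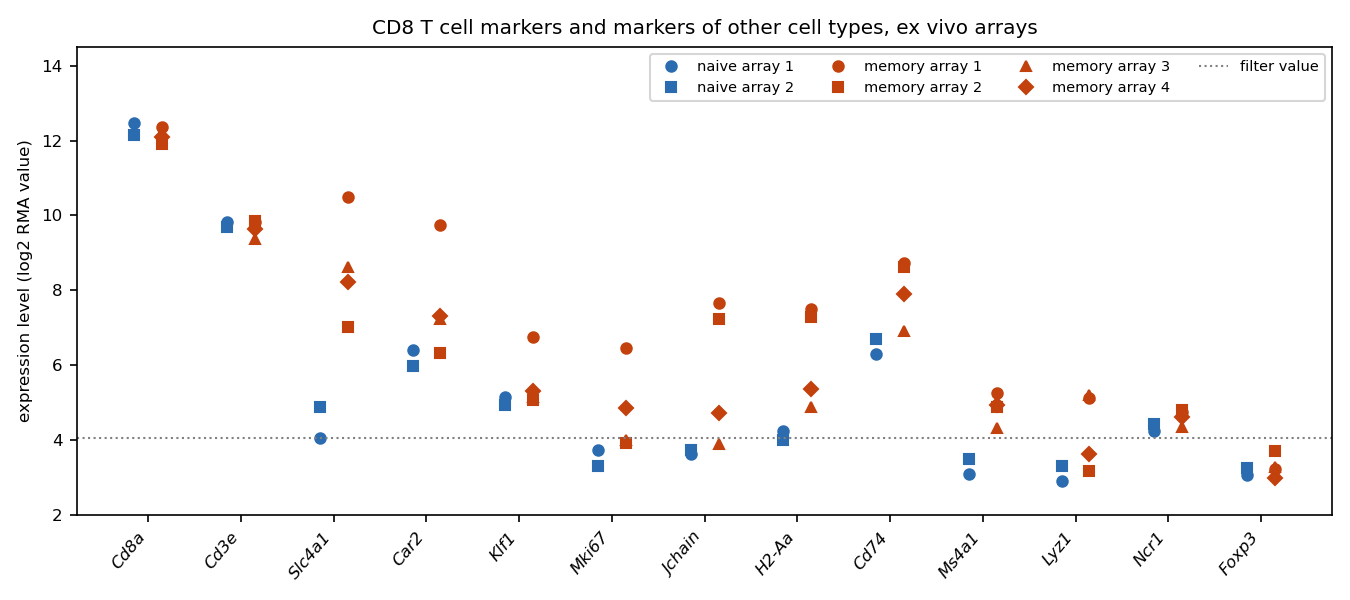
Level (log2 RMA value, y axis) of CD8 T cell markers and markers of other cell types on the 2 naive (blue) and 4 memory (orange) ex vivo arrays, 1 point per array. Cd8a and Cd3e lie at the same height in both groups. Slc4a1, Car2, Klf1 and Mki67 are highest on memory array 1, Jchain and H2-Aa on memory arrays 1 and 2, and Foxp3 lies under the dotted filter value of 4.06.

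Memory cells differed from naive cells ex vivo in 244 of 13294 autosomal genes (1.84%), 136 higher (1.02%) and 108 lower (0.812%) in memory cells at an adjusted p under 0.05 in limma, with Benjamini-Hochberg adjustment over all 13770 genes tested. The rises were led by Ifng, Ccl5, Tbx21 and Fasl, genes of effector function, and the falls by Sox4, Tnfsf11, Hacd1 and Tcf4. Of the genes past the test, 107 rose and 74 fell by at least 1 on the log2 scale, 31 and 21 by at least 2, and 9 and 10 by at least 3. The median difference over all autosomal genes was 0.03. With each array centred on its median, 110 genes were higher and 160 lower, so the balance of rises and falls depends on the scaling. In 25 of the 136 rises the naive mean lay under the filter value of 4.06, as did the memory mean in 7 of the 108 falls, and the size of those differences is uncertain.

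The 4 memory and 2 naive values did not overlap in any of the 244, but neither did they in 4303 of all autosomal genes (32.4%). Without any 1 of the 6 arrays, 73 genes stayed past the test, 46 higher and 27 lower. A fit that leaves out a naive array has 1 naive array left, whose spread is then taken from the other groups. Without naive array 1 the count was 104 and without naive array 2 it was 105. With memory array 3 alone as memory, 52 genes passed (0.391%), 49 of them among the 244, and the median difference of the 136 rises was 1.38 against 1.42 with all 4 memory arrays, that of the 108 falls -1.12 against -1.23. The 244 genes were chosen with memory array 3 and the same naive arrays among the data, so similar medians are no finding by themselves. The pooled spread takes in a cultured array, memory in medium replicate 2, that resembles ex vivo memory array 2. Without it 568 genes passed (4.27%), 254 higher and 314 lower, and all 244 were among them.

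**Figure D2:**
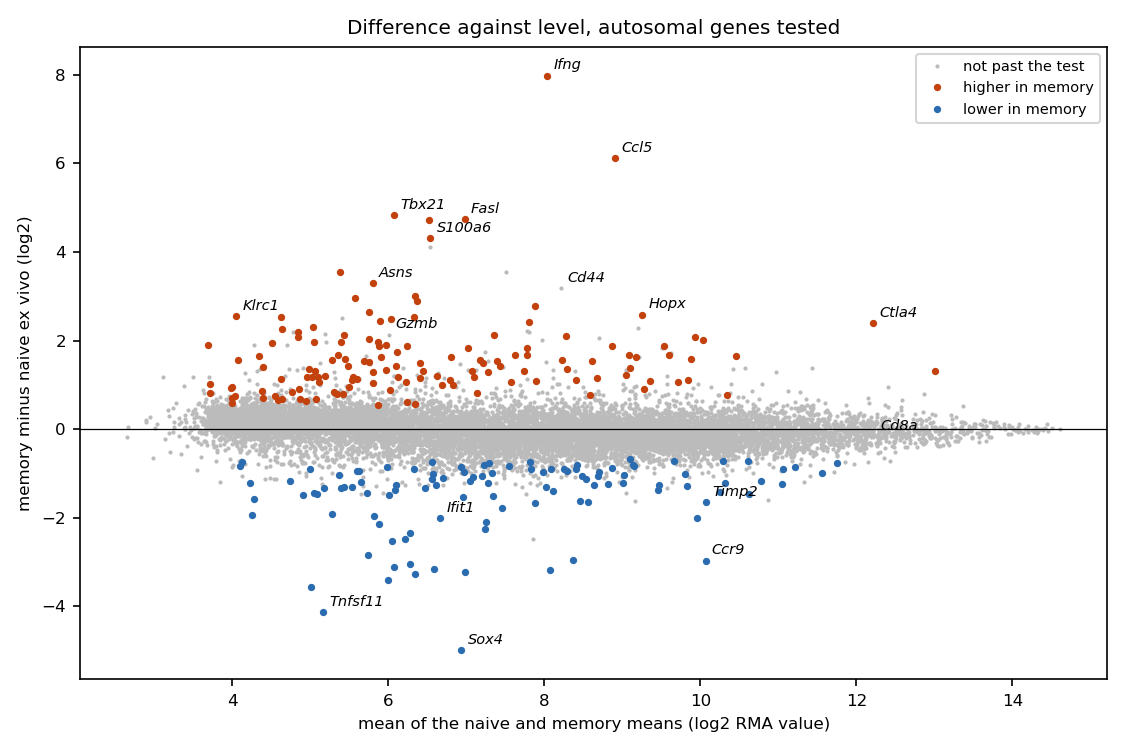
Memory minus naive difference (log2, y axis) against the mean of the naive and memory means (log2 RMA value, x axis) for the 13294 autosomal genes tested, with genes higher in memory in orange, lower in blue and not past the test in grey. Ifng at 7.98 and Sox4 at -4.99 mark the ends of the range, and Cd44 and Gzmb lie off the grey band without passing.

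Genes of cytokine secretion and cell killing held the largest rises. Ifng, the gene of interferon gamma, was at 4.28 and 3.81 on the naive arrays and 12.55, 11.92, 11.38 and 12.26 on the memory arrays. It was therefore near the filter value in naive cells and among the brighter genes of every memory array, at a mean of 12.03 ± 0.50 (SD, n = 4) against 4.05 ± 0.33 (SD, n = 2), a rise of 7.98 (SE 0.51, adjusted p = 8.87e-07), or 253-fold. Ccl5, which encodes a chemokine that memory CD8 cells store, was at 5.97 and 5.71 on the naive arrays and 12.62, 12.06, 11.42 and 11.76 on the memory arrays, a rise of 6.12 (SE 0.30, adjusted p = 8.71e-08). Fasl, a death ligand that triggers apoptosis through Fas, was at 4.75 and 4.46 on the naive arrays and 9.67, 9.02, 9.17 and 9.54 on the memory arrays, a rise of 4.74 (SE 0.49, adjusted p = 7.58e-05). For these 3 genes the lowest memory array lay 7.10, 5.45 and 4.26 above the highest naive array, and all 3 held without any 1 of the 6 arrays.

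The rises did not extend to their whole lists. Over all autosomal genes 1.02% passed as higher and 0.812% as lower. In the same fit 2251 of the 13294 had an unadjusted p under 0.05. The counts of these and the later lists are to be read beside those values. Of 12 effector cytokines and death ligands tested, 2 passed, Ifng and Fasl, both higher, with a list median of 0.25 against 0.03 over all genes. Tnf was at 7.18 and 7.30 on the naive arrays and 8.0, 7.19, 7.75 and 7.96 on the memory arrays, a difference of 0.49 (SE 0.40, adjusted p = 0.537), with overlapping groups. Of 7 chemokines 1 passed, Ccl5, and all 7 differences were above 0, with a median of 0.97. Ccl3 and Ccl4, chemokines of activated T cells, differed by 1.89 and 1.66 with no overlap, but did not pass (adjusted p = 0.298 and 0.48). The pooled spread takes in the cultured arrays. On the naive arrays in IL-7 Ccl3 was at 2.90 and 7.35 and Ccl4 at 5.09 and 9.55. In a fit of the 6 ex vivo arrays alone 3 of the 7 chemokines passed, all higher. That fit called more autosomal genes in all, 360 of 13294, 195 of them higher. None of the 14 granzyme and granule genes passed in limma (4 had an unadjusted p under 0.05, all higher), and 8 of them did not overlap, 7 higher and 1 lower, against 32.4% of all autosomal genes, with a median of 0.46. Gzmb, the gene of granzyme B, was at 4.83 and 5.05 on the naive arrays and 7.35, 7.26, 6.37 and 7.32 on the memory arrays, a difference of 2.14 (SE 0.60, adjusted p = 0.0927), which passed without the array memory in medium replicate 2 (adjusted p = 0.00899). Gzmk differed by 1.38 (SE 0.45, adjusted p = 0.143). Gzma was at 7.81 and 8.20 on the naive arrays and 8.64, 8.03, 7.78 and 9.19 on the memory arrays and Prf1, the perforin gene, at 8.04 and 7.01 on the naive arrays and 7.48, 7.06, 8.83 and 7.33 on the memory arrays, so that naive and memory arrays overlapped for both of these killing genes.

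The promoters of 5 members are shown because these genes passed the test in groups whose transcription factors bind known motifs. The RefSeq promoter table (GRCm38.p6) held 12 of the 15 largest rises, 11 of the 15 largest falls and all 3 interferon-stimulated genes that fell. Each sequence below is the 250 bases before the annotated start, read 5′ to 3′ on the gene's strand, with letters that match a searched motif in capitals. The motifs were AGGTGT (T-box factors such as T-bet), TGTGGT (Runx factors), a pair of GAAA with any 2 bases between (the core of interferon response elements) and TGATGNAAN (the amino acid response core bound by ATF4), each searched on both strands. The T-box letters end as the Runx letters begin, so matches of these motifs can overlap.
Ifng, chr10:118440796-118441045, plus strand: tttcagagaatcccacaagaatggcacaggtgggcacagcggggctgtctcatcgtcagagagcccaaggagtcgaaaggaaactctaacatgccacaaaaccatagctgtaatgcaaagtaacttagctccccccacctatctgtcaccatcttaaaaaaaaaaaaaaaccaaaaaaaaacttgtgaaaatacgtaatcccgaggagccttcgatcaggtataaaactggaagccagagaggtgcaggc
Klrk1, chr6:129623865-129624114, minus strand: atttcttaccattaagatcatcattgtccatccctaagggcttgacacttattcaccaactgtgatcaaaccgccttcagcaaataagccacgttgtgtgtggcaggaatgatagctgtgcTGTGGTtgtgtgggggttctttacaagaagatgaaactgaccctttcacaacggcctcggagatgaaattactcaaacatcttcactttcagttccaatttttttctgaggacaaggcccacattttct
Asns, chr6:7693210-7693459, minus strand: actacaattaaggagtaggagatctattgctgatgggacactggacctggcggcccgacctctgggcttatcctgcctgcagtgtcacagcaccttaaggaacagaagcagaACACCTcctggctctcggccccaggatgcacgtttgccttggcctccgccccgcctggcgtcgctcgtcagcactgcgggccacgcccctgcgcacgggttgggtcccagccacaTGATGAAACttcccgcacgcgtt
Ifit1, chr19:34640639-34640888, plus strand: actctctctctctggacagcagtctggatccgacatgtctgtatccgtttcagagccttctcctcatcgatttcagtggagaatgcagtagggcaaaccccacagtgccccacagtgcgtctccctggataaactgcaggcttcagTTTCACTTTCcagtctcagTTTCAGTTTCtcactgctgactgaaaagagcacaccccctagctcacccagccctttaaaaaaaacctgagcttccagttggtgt
Oas3, chr5:120777660-120777909, minus strand: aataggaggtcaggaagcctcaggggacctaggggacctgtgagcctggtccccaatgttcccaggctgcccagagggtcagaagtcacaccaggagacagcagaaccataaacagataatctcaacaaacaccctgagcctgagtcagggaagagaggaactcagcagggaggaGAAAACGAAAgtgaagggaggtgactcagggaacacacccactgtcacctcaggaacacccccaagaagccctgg
Ifng, the largest rise, holds none of these letters in its window. Klrk1 holds the Runx letters, as do Klrc1, Prss12 and S100a6 among the 12 rises with a promoter, against 2 of 11 falls, Basp1 and Trat1, and 11.2% of 13596 promoters of the autosomal genes tested. The T-box letters were in 1 of 12 rises, Asns, and 1 of 11 falls, Trat1, against 10.5% of all promoters. Asns also holds the amino acid response core, found in 2.12% of all promoters and in no other of the rises. Ifit1 and Oas3, 2 of the 3 interferon-stimulated genes that fell, hold the interferon response core, present in 2.63% of all promoters, while Oasl1 does not. These are matches of letters in a short window, not measured binding.

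Klrk1, Klrc1 and Il18rap, receptor genes shared with NK cells, were higher in memory cells. Klrk1, which encodes NKG2D, an activating receptor, was at 3.97 and 4.21 on the naive arrays and 7.24, 7.18, 6.53 and 7.24 on the memory arrays, a rise of 2.96 (SE 0.20, adjusted p = 1.21e-06). Klrc1, which encodes the inhibitory receptor NKG2A, was at 2.94 and 2.61 on the naive arrays and 5.72, 5.0, 5.02 and 5.55 on the memory arrays, a rise of 2.55 (SE 0.35, adjusted p = 0.000831) from naive values under the filter value. Il18rap, a chain of the IL-18 receptor, was at 5.17 and 4.95 on the naive arrays and 7.69, 7.15, 7.41 and 8.09 on the memory arrays, a rise of 2.52 (SE 0.24, adjusted p = 3.05e-05). Memory and naive arrays were far apart for all 3, and they held without any 1 array. These are the 3 that passed among 11 NK-type receptors tested, none was lower, and all 11 differences were above 0 with a median of 0.65. Klrd1, which encodes CD94, the partner of NKG2A, was at 11.54 and 11.05 on the naive arrays and 11.61, 11.25, 11.47 and 11.43 on the memory arrays, a difference of 0.14 (SE 0.35, adjusted p = 0.863), and the groups overlapped. Il18r1, the other chain of the IL-18 receptor, differed by 0.79 (SE 0.27, adjusted p = 0.157).

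Of 16 genes for common gamma chain cytokine receptors and their partners 1 passed, Il15ra, the chain that presents IL-15, at 1.0 (SE 0.23, adjusted p = 0.0385), with a list median of 0.22. The share past the test over all autosomal genes was 1.84%. Il7r, the receptor of the survival cytokine IL-7, was at 12.25 and 11.94 on the naive arrays and 12.29, 12.22, 12.33 and 12.29 on the memory arrays and did not pass. Il2rb, the IL-2 and IL-15 receptor beta chain that marks memory cells, was at 7.83 and 8.38 on the naive arrays and 8.50, 9.19, 8.70 and 8.75 on the memory arrays, with every memory array above the naive ones, and did not pass either (0.68, adjusted p = 0.46). Il15ra missed the threshold without naive array 1, naive array 2, memory array 1, memory array 3 or memory array 4 (adjusted p 0.0666 to 0.326). Its adjusted p was 0.0707 with arrays centred on their medians. The largest difference of the list was that of Il2ra, the IL-2 receptor alpha chain, at 1.96 (SE 0.76, adjusted p = 0.21), which did not pass. Il2ra was at 3.42 and 3.67 on the naive arrays and 5.41, 5.26, 5.10 and 6.24 on the memory arrays, with no overlap. On the naive arrays in IL-7, which share in the pooled spread, it was at 5.30 and 7.58. In a fit of the 6 ex vivo arrays alone 3 of the 16 genes passed, all higher, against 195 higher of 13294 autosomal genes. Of 21 receptors for IL-18, IL-12, IL-6, IL-10, TGF-beta and interferon, Il18rap alone passed, and the list median was 0.08.

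Among transcription factors, Tbx21 and Hopx rose and Sox4 and Ikzf2 fell. Tbx21, the gene of T-bet, which drives Ifng, was at 3.53 and 3.77 on the naive arrays and 8.59, 8.33, 7.98 and 9.04 on the memory arrays, a rise of 4.83 (SE 0.67, adjusted p = 0.000879). Hopx, a homeodomain protein of differentiated T cells, was at 8.34 and 7.58 on the naive arrays and 10.71, 10.61, 10.42 and 10.45 on the memory arrays, a rise of 2.59 (SE 0.22, adjusted p = 1.24e-05). No memory array came near the naive range for either. Sox4, an HMG-box factor of early lymphocyte development, was at 9.29 and 9.57 on the naive arrays and 4.72, 3.89, 4.78 and 4.36 on the memory arrays, a fall of 4.99 (SE 0.40, adjusted p = 6.93e-06), or 31.8-fold. Ikzf2, which encodes Helios, was at 7.27 and 9.05 on the naive arrays and 5.25, 5.18, 4.88 and 4.73 on the memory arrays, a fall of 3.15 (SE 0.34, adjusted p = 9.31e-05), with naive arrays that lay further apart than the memory arrays. Tcf4, an E protein of lymphocyte development, was at 7.56 and 7.83 on the naive arrays and 4.96, 4.16, 4.57 and 3.44 on the memory arrays, a fall of 3.41 (SE 0.53, adjusted p = 0.00222). Tcf4 was no longer called without naive array 2 (adjusted p = 0.0518).

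Of 25 effector and memory transcription factors 3 were higher (Tbx21, Hopx, Prdm1) and 2 lower (Ikzf2, Tox), with a list median of 0.29. The shares over all autosomal genes were 1.02% higher and 0.812% lower. Prdm1, the gene of Blimp-1, rose by 0.85 (SE 0.17, adjusted p = 0.0199), and Tox, a factor of T cell development and exhaustion, fell by 1.32 (SE 0.26, adjusted p = 0.0141). Prdm1 missed the threshold without naive array 2 or memory array 1 (adjusted p 0.0539 to 0.278), and Tox without naive array 1 or naive array 2 (adjusted p 0.0569 to 0.195). Eomes, the relative of T-bet, was at 5.60 and 5.92 on the naive arrays and 7.64, 7.16, 6.04 and 7.06 on the memory arrays, so that memory array 3 lay close to the naive arrays, and it did not pass (1.22, adjusted p = 0.294). Of 20 naive and stem-like factors, Sox4 alone passed, as lower, and the median was -0.26. Lef1, which encodes the naive cell factor LEF-1, was at 11.51 and 11.28 on the naive arrays and 10.98, 10.84, 10.76 and 10.65 on the memory arrays, separated but small in difference (-0.59, adjusted p = 0.215). Bach2 and Klf2, factors of quiescence and recirculation, did not pass, at differences of 0.07, adjusted p = 0.902 and -0.24, adjusted p = 0.608. Runx3 and Id2, factors of CD8 and effector fate, were at differences of -0.18, adjusted p = 0.556 and 0.11, adjusted p = 0.88.

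**Figure D3:**
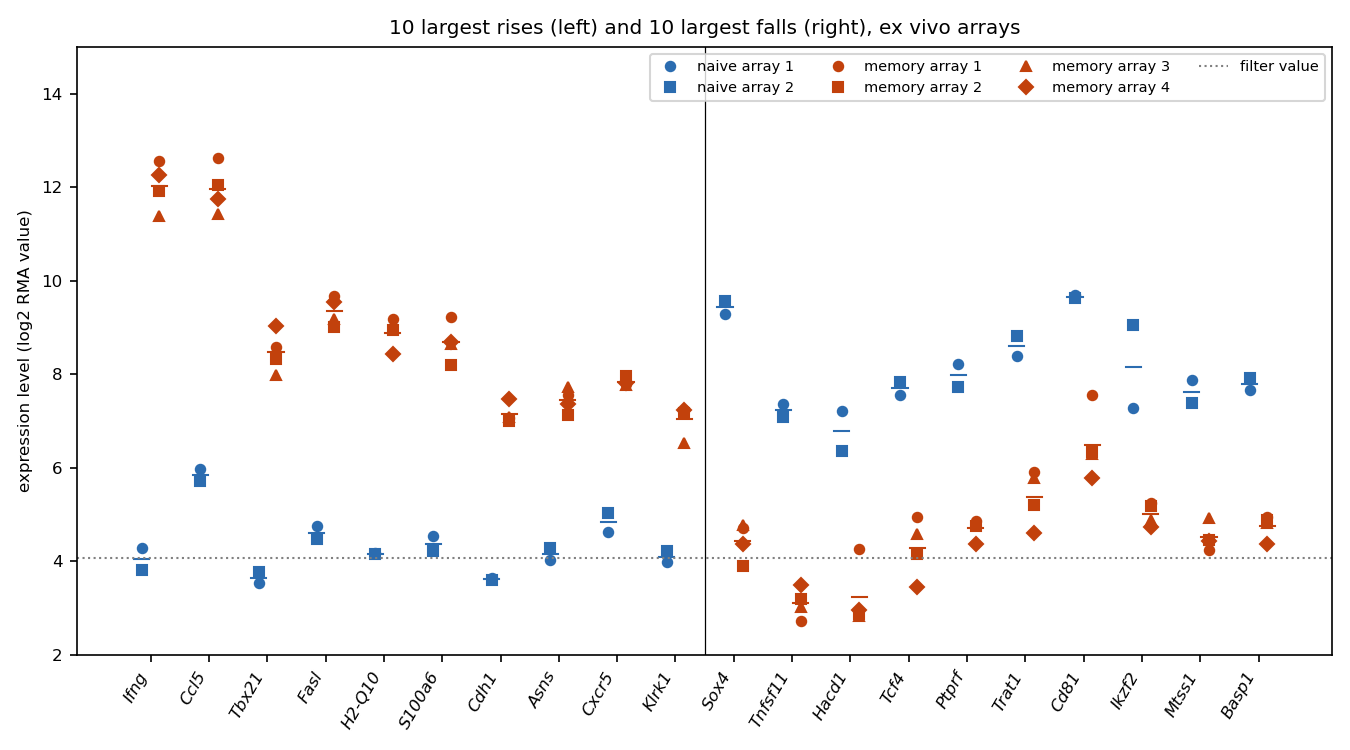
Level (log2 RMA value, y axis) of the 10 genes with the largest rises and the 10 with the largest falls on each ex vivo array. Blue points are the 2 naive arrays, orange points the 4 memory arrays, short lines the group means and the dotted line the filter value of 4.06. The groups do not overlap for any of the 20 genes, and several naive values of the rises sit next to the filter value.

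Surface molecules for homing changed in 3 of 13 chemokine receptor genes, against 1.84% of all autosomal genes. Cxcr5, the receptor for the B cell follicle chemokine CXCL13, was at 4.63 and 5.04 on the naive arrays and 7.80, 7.97, 7.78 and 7.82 on the memory arrays, a rise of 3.0 (SE 0.25, adjusted p = 9.07e-06). Ccr9, the gut homing receptor for CCL25, was at 11.57 and 11.53 on the naive arrays and 9.22, 8.53, 8.90 and 7.69 on the memory arrays, a fall of 2.97 (SE 0.32, adjusted p = 8.58e-05), and stayed well above the filter value in memory cells. The 4 memory arrays spread over 0.19 for Cxcr5 and over 1.53 for Ccr9. Gpr183, a receptor for oxysterols that guides cells in lymphoid tissue, rose by 2.01 (SE 0.37, adjusted p = 0.00905), but missed the threshold without naive array 1 or naive array 2 (adjusted p 0.0793 to 0.126). The other 10 chemokine receptors did not pass, among them Ccr7, the lymph node homing receptor of naive cells, at 11.09 and 11.80 on the naive arrays and 11.16, 11.68, 11.58 and 12.15 on the memory arrays, with overlapping groups.

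No gene of the 24 homing and adhesion molecules passed in limma, with a list median of -0.06. An unadjusted p under 0.05 was found for 6, 3 higher and 3 lower, against 2251 of 13294 autosomal genes. Cd44, the adhesion receptor by which memory cells are usually recognised, was at 6.67 and 6.57 on the naive arrays and 9.73, 9.38, 10.14 and 9.99 on the memory arrays. The lowest memory array was 2.71 above the highest naive array, but the difference of 3.19 (SE 0.88, adjusted p = 0.0897) missed the threshold in the pooled fit. It passed without the array memory in medium replicate 2 (adjusted p = 0.049), and both other probe sets of Cd44 passed as higher. Itgae, which encodes CD103, the integrin that binds E-cadherin, was at 11.44 and 11.90 on the naive arrays and 10.36, 9.65, 10.09 and 10.16 on the memory arrays, lower on every memory array, at -1.60 (SE 0.39, adjusted p = 0.0535). Without the array memory in medium replicate 2 its adjusted p was 0.034. S1pr1, the receptor for egress from lymphoid tissue, was at 10.77 and 10.40 on the naive arrays and 9.41, 9.45, 10.06 and 9.56 on the memory arrays, a difference of -0.96 (SE 0.33, adjusted p = 0.158).

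In a list of 15 inhibitory receptors, relatives of such receptors and ectonucleotidases 3 were higher and none lower, with a median of 0.28. Over all autosomal genes 1.02% were higher. Ctla4, which encodes the inhibitory receptor for CD80 and CD86, was at 11.57 and 10.48 on the naive arrays and 13.48, 13.43, 13.46 and 13.28 on the memory arrays, a rise of 2.39 (SE 0.34, adjusted p = 0.0011) from naive values that were already bright. Nt5e, the gene of CD73, which makes adenosine from AMP, was at 4.09 and 4.75 on the naive arrays and 6.89, 7.02, 7.15 and 7.24 on the memory arrays, a rise of 2.65 (SE 0.26, adjusted p = 3.88e-05). The other was Cd200r4, a relative of the CD200 receptor, at 1.54 (SE 0.28, adjusted p = 0.00781), which missed the threshold without naive array 1 or naive array 2 (adjusted p 0.0808 to 0.105). Pdcd1 and Lag3, the genes of PD-1 and LAG-3, were close to the filter value in both groups, at 4.37, 4.71, 4.0 and 4.04 and 4.65, 4.63, 4.39 and 4.52 on the memory arrays, and did not pass.

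Of 20 costimulatory receptors and TNF family genes 1 rose and 1 fell, against 1.02% higher and 0.812% lower over all autosomal genes. Tnfsf11, which encodes RANKL, was at 7.37 and 7.09 on the naive arrays and 2.72, 3.18, 3.03 and 3.48 on the memory arrays, a fall of 4.13 (SE 0.87, adjusted p = 0.024) to values under the filter value. Cd86, a ligand of CD28 and CTLA-4, rose by 1.06 (SE 0.21, adjusted p = 0.0161). Tnfsf11 missed the threshold without naive array 1, naive array 2, memory array 1 or memory array 2 (adjusted p 0.0527 to 0.19), and Cd86 without naive array 1 or naive array 2 (adjusted p 0.0799 to 0.194). Of 33 T cell receptor signalling genes 1 passed, Trat1, an adaptor that stabilises the receptor complex, at 8.39 and 8.81 on the naive arrays and 5.92, 5.20, 5.79 and 4.59 on the memory arrays, a fall of 3.22 (SE 0.38, adjusted p = 0.000189). The list median was -0.08, and all other members stayed between -0.76 and 0.69.

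Of 26 S100, annexin, galectin and cytoskeleton genes 4 were higher, against 1.02% of all autosomal genes, and none lower, with a median of 0.26. With arrays centred on their medians 1 of the 4 passed. S100a6, a calcium-binding protein of motile cells, was at 4.54 and 4.22 on the naive arrays and 9.23, 8.20, 8.66 and 8.70 on the memory arrays, a rise of 4.32 (SE 0.54, adjusted p = 0.000384) that held without any 1 array. The others were Plek, which encodes pleckstrin, at 2.27 (SE 0.54, adjusted p = 0.045), the scaffold gene Ahnak at 1.58 (SE 0.36, adjusted p = 0.0354) and S100a4 at 0.82 (SE 0.19, adjusted p = 0.0415). Plek missed the threshold without naive array 1, naive array 2, memory array 1 or memory array 4 (adjusted p 0.0811 to 0.241), Ahnak without any 1 of the 6 arrays (adjusted p 0.0648 to 0.257) and S100a4 without naive array 1, naive array 2, memory array 1, memory array 2 or memory array 4 (adjusted p 0.0722 to 0.298). Lgals1, the galectin-1 gene, was at 10.82 and 10.66 on the naive arrays and 12.06, 12.28, 12.29 and 11.86 on the memory arrays, and Anxa2, the annexin A2 gene, at 6.34 and 7.0 on the naive arrays and 9.16, 8.60, 8.49 and 9.29 on the memory arrays. Both were higher on every memory array without passing (1.38, adjusted p = 0.11 and 2.22, adjusted p = 0.0834). On the naive arrays in IL-7, which share in the pooled spread, Anxa2 was at 6.56 and 8.80. In a fit of the 6 ex vivo arrays alone 7 of the 26 genes passed, all higher, against 195 higher of 13294 autosomal genes in that fit.

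Of 23 genes of the Ly6, Ms4a and other small surface families 2 rose and 1 fell, where 1.84% of all autosomal genes passed. Cd81, a tetraspanin that organises membrane receptors, was at 9.69 and 9.64 on the naive arrays and 7.56, 6.34, 6.28 and 5.77 on the memory arrays, a fall of 3.17 (SE 0.33, adjusted p = 7.61e-05), and memory array 1 stayed closest to the naive arrays. Ms4a6d rose by 2.14 (SE 0.30, adjusted p = 0.000999) and Ifitm10 by 1.84 (SE 0.29, adjusted p = 0.00236), the latter not without naive array 2 (adjusted p = 0.0841). Of 26 cathepsins, serpins and cystatins 2 rose and 2 fell. Serpinb6a, an intracellular serine protease inhibitor, rose by 1.37 (SE 0.17, adjusted p = 0.000369), and Timp2, an inhibitor of metalloproteinases, fell by 1.65 (SE 0.24, adjusted p = 0.00123). Both held without any 1 array. Serpinb1a rose by 1.43 (SE 0.33, adjusted p = 0.0415) and Ctsc, the protease that activates granzymes, fell by 0.76 (SE 0.18, adjusted p = 0.0415), and these missed the threshold without naive array 1, naive array 2, memory array 1, memory array 2 or memory array 3 (adjusted p 0.0502 to 0.327) and without any 1 of the 6 arrays (adjusted p 0.0608 to 0.289). H2-Q10, a class I gene of the Q region, was the single rise among 18 antigen processing genes, at 4.17 and 4.16 on the naive arrays and 9.18, 8.96, 8.98 and 8.42 on the memory arrays, a rise of 4.72 (SE 0.30, adjusted p = 8.87e-07). The class I genes of this region are near-identical copies, so which copy the probe set measures is uncertain.

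Ifit1, Oas3 and Oasl1 fell among the interferon-stimulated genes. Of 36 tested 3 fell, against 0.812% of all autosomal genes, none rose and 28 differences were below 0. In 15 the groups did not overlap, 12 lower and 3 higher, against 32.4% of all autosomal genes, with a list median of -0.38 against 0.03 over all genes. The mean level of the list was 8.37 and 8.90 on the naive arrays and 8.58, 8.05, 8.11 and 8.17 on the memory arrays, so memory array 1 lay above naive array 1, and naive array 2 was the highest. With memory array 3 as the only memory array 0 of the 36 passed in limma, and 9 had an unadjusted p under 0.05. The list median was the lowest of the 35 lists and stayed below 0 with arrays centred on their medians (-0.46) and after quantile normalisation (-0.32). Ifit1, which encodes a sensor of foreign RNA, was at 7.31 and 8.02 on the naive arrays and 6.40, 5.52, 5.70 and 5.0 on the memory arrays, a fall of 2.0 (SE 0.37, adjusted p = 0.00956). Oas3, an enzyme that activates RNase L, was at 7.14 and 7.12 on the naive arrays and 6.27, 5.87, 5.95 and 5.91 on the memory arrays, a fall of 1.13 (SE 0.20, adjusted p = 0.00656), and its relative Oasl1 fell by 1.07 (SE 0.25, adjusted p = 0.0444). The naive arrays themselves differed by 0.71 for Ifit1 and by 0.84 for Oasl1. All 3 depended on single arrays: Ifit1 missed the threshold without naive array 2 (adjusted p = 0.181), Oas3 without naive array 1 or naive array 2 (adjusted p 0.0798 to 0.0899) and Oasl1 without naive array 2, memory array 1, memory array 2, memory array 3 or memory array 4 (adjusted p 0.0683 to 0.381). Of 17 guanylate binding proteins and immunity GTPases 1 passed, Gimap7, a GTPase of lymphocyte survival, as higher at 1.38 (SE 0.32, adjusted p = 0.0403). Gimap7 was no longer called without any 1 of the 6 arrays (adjusted p 0.0534 to 0.249).

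In lists of acute activation genes Ier3, Map3k8 and Spry2 were each the only member past the test, where 1.84% of all autosomal genes passed. Of 32 immediate early genes 1 passed, Ier3, at 1.53 (SE 0.31, adjusted p = 0.0186), and the median was 0.22. Atf3, a stress-induced factor, was at 5.82 and 5.65 on the naive arrays and 9.95, 9.32, 8.89 and 8.98 on the memory arrays, with a large but not called difference of 3.55 (SE 1.14, adjusted p = 0.136), and passed without the array memory in medium replicate 2 (adjusted p = 0.0123). Rgs1, a brake on chemokine receptor signals, was at 8.70 and 8.48 on the naive arrays and 10.56, 10.27, 10.21 and 10.63 on the memory arrays (1.83, adjusted p = 0.112). Without that array its adjusted p was 7.02e-05. Of 16 NF-kB subunits and inhibitors 1 passed, the kinase gene Map3k8 at 1.67 (SE 0.34, adjusted p = 0.0176), and 15 of 16 differences were above 0 with a median of 0.45. Of 34 MAP kinase phosphatases, RGS and small G protein regulators 1 passed, Spry2, an inhibitor of receptor tyrosine kinase signals, at 0.71 (SE 0.14, adjusted p = 0.0179). Ier3 missed the threshold without naive array 1 (adjusted p = 0.24), Map3k8 without naive array 1 or naive array 2 (adjusted p 0.125 to 0.173) and Spry2 without naive array 1, naive array 2 or memory array 1 (adjusted p 0.0539 to 0.179). Of 15 heat shock genes none passed in limma. An unadjusted p under 0.05 was found for 3, against 2251 of 13294 autosomal genes. Hspa1a, the inducible HSP70 gene, was at 7.47 and 8.65 on the naive arrays and 11.07, 9.76, 10.57 and 10.01 on the memory arrays. It differed by 2.29 (SE 0.76, adjusted p = 0.151). On the memory arrays in medium Hspa1a was at 6.96 and 10.13. Leaving out memory in medium replicate 2 gave 2 of the 15 as higher, and a fit of the 6 ex vivo arrays alone also gave 2. Among 13294 autosomal genes these fits gave 254 and 195 as higher.

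In the list of BCL2 family and caspase genes, 2 of 20 rose and 1 fell, where 1.84% of all autosomal genes passed. The inflammatory caspase genes Casp1 and Casp4 rose by 1.75 (SE 0.30, adjusted p = 0.00613) and 2.04 (SE 0.48, adjusted p = 0.0452), and Bmf, a pro-apoptotic member, fell by 1.05 (SE 0.24, adjusted p = 0.0373). Each missed the threshold in fits that left out 1 array, Casp1 without naive array 1 or naive array 2 (adjusted p 0.0518 to 0.112), Casp4 without naive array 1, naive array 2, memory array 1, memory array 2 or memory array 4 (adjusted p 0.0568 to 0.386) and Bmf without naive array 1, naive array 2, memory array 1, memory array 2 or memory array 3 (adjusted p 0.0516 to 0.322). Bcl2 itself, the main survival gene, was at 9.26 and 8.72 on the naive arrays and 10.07, 9.45, 10.14 and 9.73 on the memory arrays and did not pass (0.86, adjusted p = 0.199).

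Housekeeping and metabolic groups showed few or no calls. None of 50 respiratory chain, 35 ribosomal protein, 31 ribosome biogenesis, 20 glycolysis or 25 chromatin genes passed in limma, with medians of 0.08, 0.01, 0.10, 0.20 and -0.21, where the share called among all autosomal genes was 1.84%. At an unadjusted p under 0.05 the first 3 of these lists held 0 genes, the glycolysis and chromatin lists 5 each. Among all 13294 autosomal genes 2251 reached that value. Ribosomal protein genes stayed between -0.16 and 0.32. In the amino acid and unfolded protein response 1 of 27 passed, Asns, the asparagine synthetase, at 4.02 and 4.28 on the naive arrays and 7.56, 7.13, 7.73 and 7.37 on the memory arrays, a rise of 3.29 (SE 0.51, adjusted p = 0.00236), with a list median of 0.03. Asns missed the threshold without naive array 1 (adjusted p = 0.0568). Of 32 cholesterol and fatty acid genes Scd1, a fatty acid desaturase, passed, and of 24 autophagy, metal and redox genes Mt2, a metallothionein, at 1.03 (SE 0.25, adjusted p = 0.0464) and 1.18 (SE 0.25, adjusted p = 0.0221). Scd1 missed the threshold without naive array 1, naive array 2, memory array 1, memory array 2 or memory array 4 (adjusted p 0.0818 to 0.272) and Mt2 without naive array 1, naive array 2, memory array 1 or memory array 2 (adjusted p 0.0593 to 0.205).

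In the proliferation list 1 of 42 passed, Cdk2, a cell cycle kinase, which fell by 0.89 (SE 0.21, adjusted p = 0.0409) but was not called without naive array 1, naive array 2, memory array 1, memory array 2 or memory array 3 (adjusted p 0.0556 to 0.279). The list median was -0.17, and the share past the test over all autosomal genes was 1.84%. Mki67, the Ki-67 gene of dividing cells, was at 3.74 and 3.31 on the naive arrays and 6.45, 3.91, 4.01 and 4.85 on the memory arrays, and Ube2c, a ubiquitin conjugating enzyme of mitosis, at 3.64 and 3.69 on the naive arrays and 6.69, 4.29, 4.38 and 4.53 on the memory arrays, highest on memory array 1, which was also highest for Slc4a1 and Klf1. The part of those markers in these values was not tested.
Among 17 glycosyltransferases of surface glycans Chst11, a chondroitin sulfotransferase, rose by 1.56 (SE 0.23, adjusted p = 0.00144) and Mgat5, which branches N-glycans, fell by 0.80 (SE 0.17, adjusted p = 0.0245). Chst11 missed the threshold without naive array 1 (adjusted p = 0.0625) and Mgat5 without naive array 1, naive array 2, memory array 2 or memory array 3 (adjusted p 0.0548 to 0.225). Of 28 other genes known as higher in naive CD8 cells 2 fell, Ramp1 and Atp1b1, by 1.21 and 0.91, and were not called without naive array 1, naive array 2, memory array 2 or memory array 3 (adjusted p 0.05 to 0.324) and without naive array 1, naive array 2, memory array 1, memory array 3 or memory array 4 (adjusted p 0.0626 to 0.252). Dapl1 and Igfbp4 of the same list overlapped between the groups, at differences of 0.12, adjusted p = 0.895 and 0.09, adjusted p = 0.956.

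**Figure D4:**
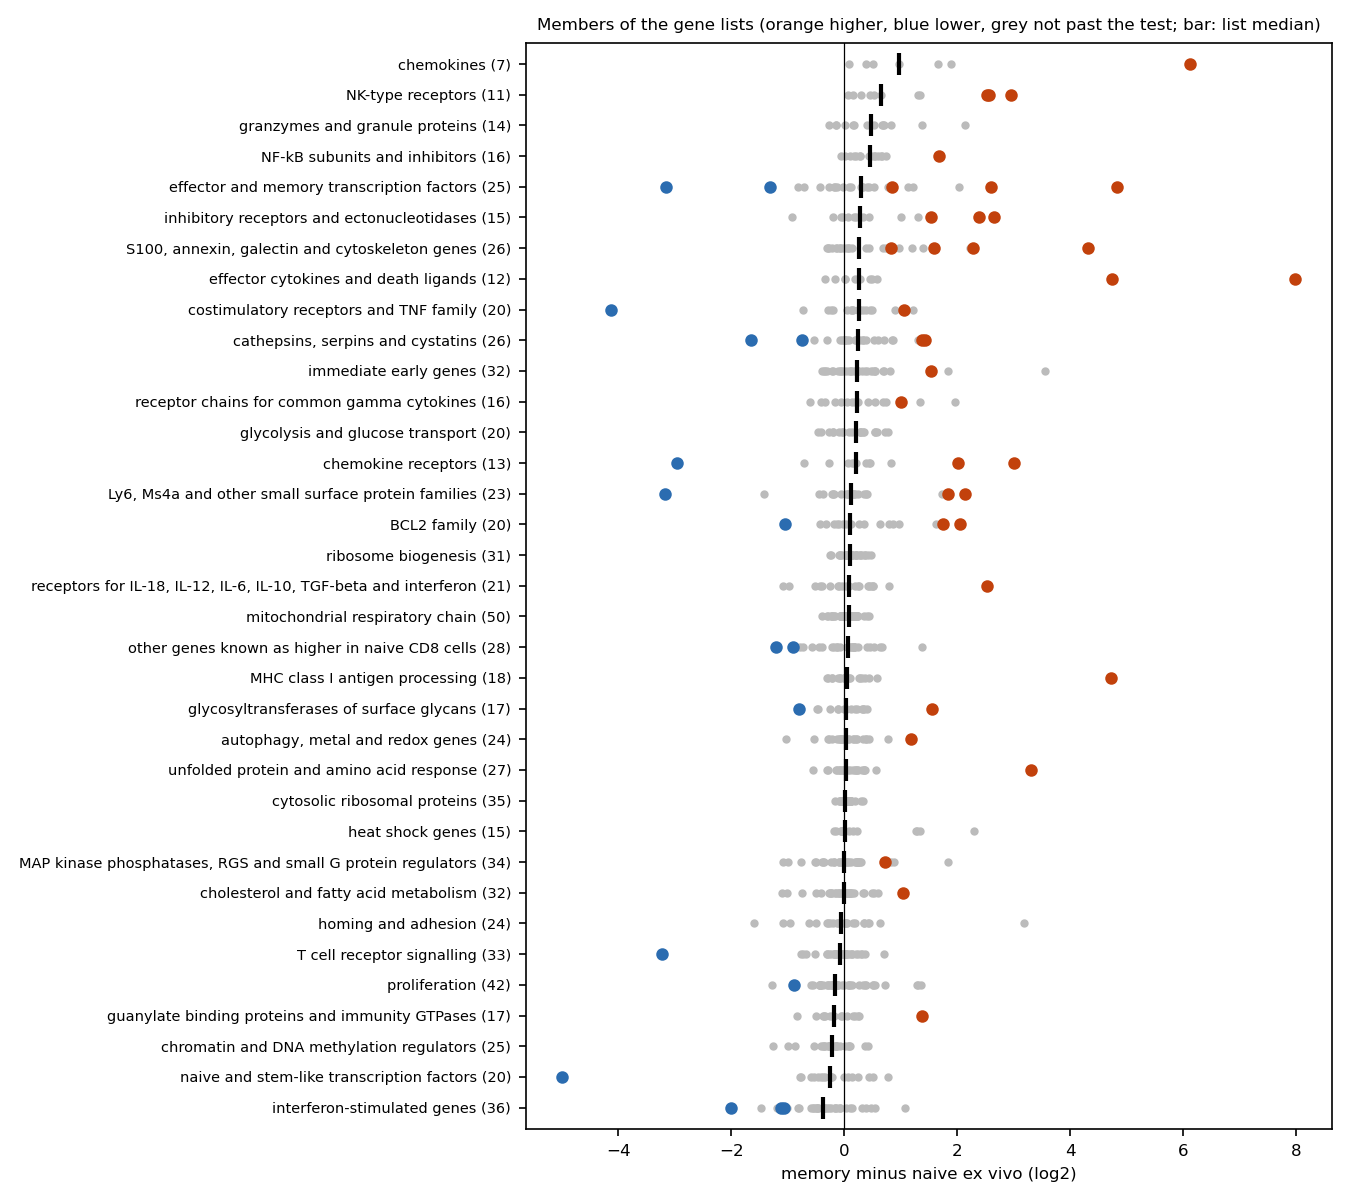
Memory minus naive difference (log2, x axis) of each autosomal member tested of 35 gene lists (rows, number tested in brackets), with genes higher in memory in orange, lower in blue, not past the test in grey and the list median as a black bar. Chemokines have the highest median, 0.97, and interferon-stimulated genes the lowest, -0.38.

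The remaining genes among the 15 largest rises past the test were Cdh1, Ppm1j and Prss12. Cdh1, the gene of E-cadherin, was at 3.64 and 3.59 on the naive arrays and 7.06, 7.01, 7.08 and 7.47 on the memory arrays, a rise of 3.54 (SE 0.32, adjusted p = 1.64e-05). Ppm1j, a protein phosphatase, was at 4.82 and 5.0 on the naive arrays and 7.84, 7.47, 8.03 and 7.90 on the memory arrays, a rise of 2.90 (SE 0.19, adjusted p = 1.09e-06), and Prss12, a secreted serine protease, rose by 2.78 (SE 0.39, adjusted p = 0.00101). All 3 held without any 1 array.

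The remaining largest falls were Ptprf, Mtss1, Basp1, Dapk1, Dleu2, Hacd1, Tubb2b and 2810410L24Rik. Ptprf, the receptor phosphatase LAR, was at 8.23 and 7.73 on the naive arrays and 4.87, 4.76, 4.83 and 4.38 on the memory arrays, a fall of 3.27 (SE 0.25, adjusted p = 4.69e-06). Mtss1 and Basp1, proteins that bind membranes and actin, fell by 3.11 (SE 0.27, adjusted p = 1.24e-05) and 3.04 (SE 0.30, adjusted p = 4.27e-05), and Dapk1, a kinase of cell death, by 2.52 (SE 0.23, adjusted p = 1.79e-05). These 4 genes held without any 1 array, and so did Dleu2, a long non-coding RNA that hosts microRNA genes, which fell by 2.85 (SE 0.31, adjusted p = 8.58e-05). Hacd1, an enzyme of fatty acid elongation, was at 7.21 and 6.35 on the naive arrays and 4.25, 2.88, 2.82 and 2.95 on the memory arrays, a fall of 3.55 (SE 0.70, adjusted p = 0.0161), with memory array 1 nearer to the naive arrays than the others. The tubulin gene Tubb2b fell by 2.96 (SE 0.47, adjusted p = 0.0027) and the unannotated 2810410L24Rik by 2.48 (SE 0.50, adjusted p = 0.0186). Hacd1 missed the threshold without naive array 1 or naive array 2 (adjusted p 0.0791 to 0.195), Tubb2b without naive array 2 (adjusted p = 0.0777) and 2810410L24Rik without naive array 1 or naive array 2 (adjusted p 0.148 to 0.154).

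The same memory and naive difference was measured in cultured cells after 20 hours with IL-7 at 10 ng/mL, alone or with IL-4 at 20 ng/mL, 2 arrays per group. These arrays are other arrays than the ex vivo ones. On memory arrays numbered 1, Eif2s3y was at 9.24 ex vivo, 10.20 in IL-7 and 9.48 with both cytokines, and on those numbered 2 at 6.12, 6.65 and 6.78, so its level followed the replicate number across conditions. The difference between memory arrays 1 and 2 over autosomal genes correlated between ex vivo and cultured cells at r = 0.12 in IL-7 and 0.20 with both cytokines, over genes, which are not independent. The labels do not say that a number marks one sorted population. In IL-7, 356 autosomal genes passed (2.68%), and 105 genes were shared with the ex vivo comparison in the same direction, 43.0% of the 244 and 29.5% of the 356. With both cytokines 505 passed (3.80%), and 117 were shared, 48.0% of the 244 and 23.2% of the 505. No gene of the 244 passed in the opposite direction in either culture, and 77 passed in all 3 comparisons, 56 higher and 21 lower. The median difference of the 136 rises was 1.19 in IL-7 and 1.24 with both cytokines, against 1.42 ex vivo, and that of the 108 falls -0.50 and -0.86 against -1.23. The genes were chosen by their ex vivo difference, so a smaller difference elsewhere is no finding by itself.

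Ccl5, H2-Q10, S100a6, Hopx, Cxcr5, Ptprf and Cd81 passed in all 3. Ccl5 differed by 6.63 (SE 0.34, adjusted p = 2.1e-07) in IL-7 and by 5.29 (SE 0.34, adjusted p = 2.22e-06) with both cytokines. S100a6 differed by 4.49 and 5.13, and Hopx by 2.88 and 3.29, both at or above their ex vivo difference. Ifng differed by 5.66 and 6.14 and passed in both. Fasl, at 4.74 ex vivo, differed by 1.80 (SE 0.57, adjusted p = 0.129) in IL-7, which did not pass, and by 2.37 (SE 0.57, adjusted p = 0.0357) with both cytokines. Asns did not pass in either culture (1.28 and 1.15), nor did Tnfsf11 (-1.64 and -1.90). None of the 3 interferon-stimulated genes passed in either culture. Ifit1 differed by -0.25 and 0.59, Oas3 by 0.04 and 0.76 and Oasl1 by 0.09 and 0.17. Of the 3 only Oas3 passed the test of the change in that difference, against IL-4 and IL-7. Il7r and Klrd1, not past the test ex vivo, were higher in memory cells in IL-7, by 1.64 (SE 0.35, adjusted p = 0.0195) and 1.76 (SE 0.41, adjusted p = 0.0326), although the change from ex vivo did not pass for either (adjusted p = 0.277 and 0.293).

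**Figure D5:**
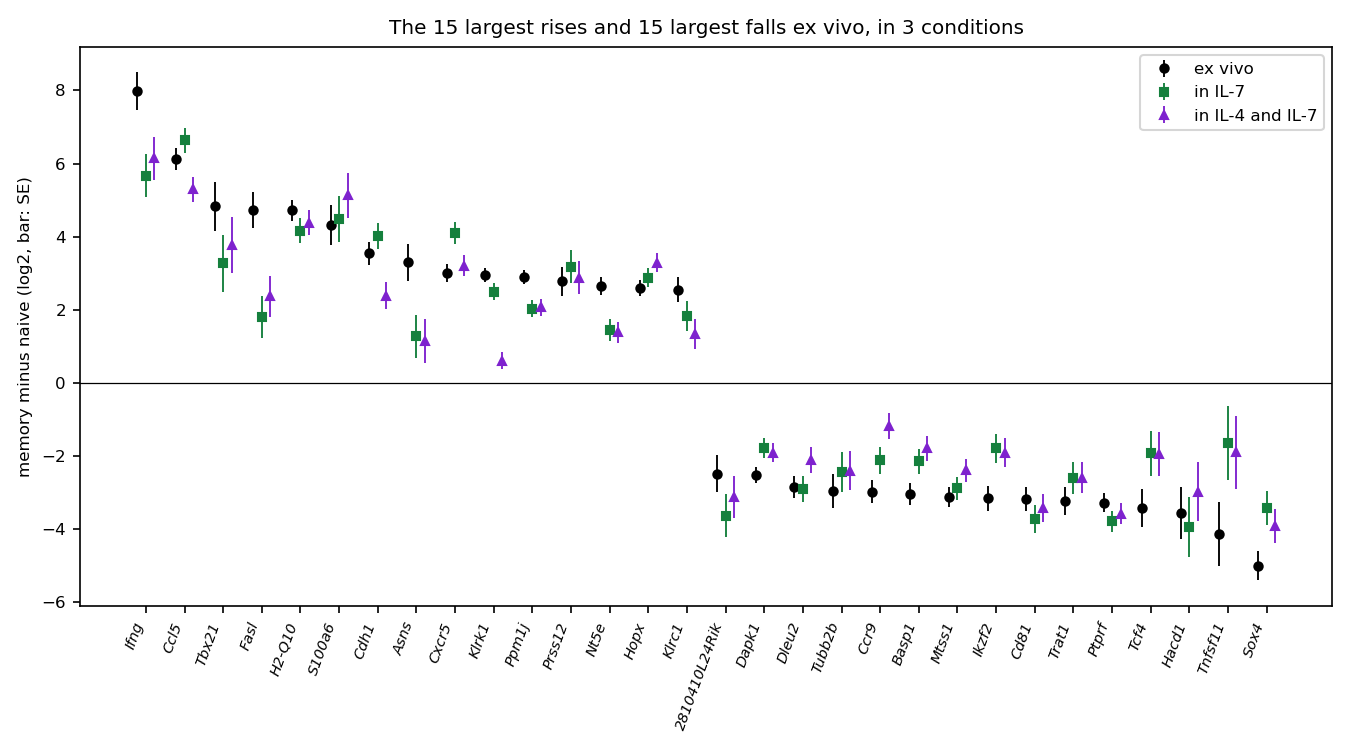
Memory minus naive difference (log2, y axis) with its standard error for the 15 largest rises and 15 largest falls ex vivo, ex vivo (black), in IL-7 (green) and in IL-4 and IL-7 (purple). The sign is the same in all 3 conditions for each of the 30 genes. Klrk1 drops to 0.60 with both cytokines.

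Whether the memory and naive difference itself changed between ex vivo cells and cultured cells was tested as a difference of differences. Against IL-7, 7 of 13294 genes passed (0.0527%), and against IL-4 and IL-7, 6 passed (0.0451%). With cell type and replicate number as a random block 18 and 7 passed, with all of the 7 and all of the 6 among them, and with the replicate number as a fixed block 4 and 2. Only Klrk1 and Oas3 of these belong to the 244. Klrk1 was at 4.11 and 4.05 on the naive and 4.60 and 4.76 on the memory arrays with IL-4 and IL-7, against 7.24, 7.18, 6.53 and 7.24 on the memory arrays ex vivo, and its difference was 2.35 (SE 0.31, adjusted p = 0.0154) larger ex vivo. Oas3 was at 5.56 and 5.94 on the naive and 6.78 and 6.24 on the memory arrays with both cytokines, so the sign of the difference turned, by -1.90 (SE 0.30, adjusted p = 0.0401). Each of these calls rests on single arrays of the 10 compared. Klrk1 missed the threshold without ex vivo naive array 1 or either memory array with IL-4 and IL-7 (adjusted p 0.063 to 0.0967), and Oas3 without any 1 array other than naive array 2 with IL-4 and IL-7 (adjusted p 0.063 to 0.261).

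Of the 6 genes with the smallest adjusted p in each test, the others did not pass ex vivo and differed in culture. Ecm1, an extracellular matrix protein gene, was at 6.61 and 6.56 on the naive arrays and 6.65, 5.90, 6.57 and 6.68 on the memory arrays ex vivo and at 10.11 and 10.31 on the naive arrays in IL-7 against 6.05 and 6.15 on the memory arrays. The change of its difference was 3.97 (SE 0.33, adjusted p = 9.35e-05). Lta, the lymphotoxin alpha gene, was at 5.29 and 5.30 on the naive arrays ex vivo, at 9.13 and 9.14 in naive cells with IL-7 and at 6.32 and 5.53 in memory cells with IL-7, a change of 3.79 (SE 0.48, adjusted p = 0.00729). D630039A03Rik, Pde5a and Olfml3 likewise had naive cells in IL-7 as the highest of the 4 groups in this test, at changes of 3.83 (SE 0.34, adjusted p = 0.000143), 2.37 (SE 0.31, adjusted p = 0.00911) and 2.33 (SE 0.33, adjusted p = 0.0126). Xdh, the xanthine oxidase gene, had naive cells in IL-7 as the lowest of these groups, a change of -1.91 (SE 0.28, adjusted p = 0.0176). With both cytokines Ptpn3, a phosphatase gene, was at 7.31 and 6.92 in naive and 4.61 and 3.84 in memory cells, against 3.44 and 3.33 and 3.66, 3.72, 3.74 and 3.42 ex vivo, a change of 3.14 (SE 0.34, adjusted p = 0.00353). Papss2, Dhrs3 and H2-Q2 were also highest in naive cells with both cytokines, at changes of 1.84 (SE 0.28, adjusted p = 0.0348), 1.57 (SE 0.24, adjusted p = 0.0348) and 2.01 (SE 0.31, adjusted p = 0.0348). Ecm1, D630039A03Rik and Ptpn3 passed in each fit that left out 1 of the 10 arrays of their test. Lta missed it without ex vivo naive array 2 or memory array 2 in IL-7 (adjusted p 0.0507 to 0.0662), Pde5a without either ex vivo naive array or that memory array (0.0507 to 0.0922), Olfml3 without these or naive array 2 in IL-7 (0.0672 to 0.136), and Xdh without 5 of the 10 (0.0534 to 0.184). Papss2, Dhrs3 and H2-Q2 missed it without 8, 8 and 9 of the 10, at adjusted p of up to 0.261, 0.299 and 0.33.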

How the data were processed

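RNA of 18 samples was hybridised to Affymetrix mouse arrays. The deposited values are log2 expression per probe set, made by the authors with RMA, and the submitters' processing notes also name limma. RMA subtracts background, sets all arrays to one distribution of values and sums probes, so small shifts of the whole distribution between groups cannot be measured. Tool versions of that step are not given in the sources used here. The deposited table has values for 45101 probe sets, including 64 array controls. The platform annotation gave 1 symbol to 34958, several to 932 and none to 9211, and 34754 had a gene identifier in the RefSeq gene table (GRCm38.p6), from which chromosomes were taken.

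Each of 18194 genes was represented by its probe set of highest mean over the 18 arrays. A gene was tested if at least 2 arrays exceeded 4.06 (log2), the 40th percentile over the whole table, which left 13770. One limma model (limma 3.58.1, R 4.3.3) with a mean for each of 8 groups was fitted to all 18 arrays, so all groups shared one estimate of the spread, with 10 residual degrees of freedom. Ex vivo samples were grouped as memory (4) and naive (2). P-values were adjusted by Benjamini-Hochberg over all genes tested, with a threshold of 0.05, and the model was tested on simulated data. The titles say biological replicates, but not which animals the cells came from, and the number of arrays limits the precision. The titles number the replicates of every group. Deviations from the group mean of same-numbered naive and memory arrays correlated at 0.34 and 0.05 over genes, and with 2 shared numbers these were not taken as pairs. Eif2s3y followed the number of the memory arrays across conditions, but correlations over the genes tested did so only in part. Ex vivo memory array 1 correlated with memory arrays 1 and 2 at 0.962 and 0.960 in IL-7 and at 0.959 and 0.953 with both cytokines. For ex vivo memory array 2 these values were 0.954 and 0.954, and 0.952 and 0.949. Fits with the number as a block are given beside the tests between ex vivo and cultured cells.

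The genes named were the 15 largest rises and 15 largest falls among genes past the test with groups that do not overlap, up to 6 called and 3 uncalled members of each of 35 gene lists, a set of usual naive and memory genes, the genes with the widest range within a group, and the 6 with the smallest adjusted p of each difference of differences. Some of these are given only within counts. The comparison, the members and the lists were chosen with earlier results of these data known. Promoters are from RefSeq (GRCm38.p6). Alternatives covered the filter, the probe set, the scaling, the arrays, the replicate number, RNA quality and the variance model. Python 3.11.15 was used for counts, motifs and figures. X-linked and Y-linked genes were left out of the results apart from the check of the arrays.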

Additional observations from a re-analysis of the deposited data

Results flagged for a closer look

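In 8 of 115 genes with values in the text, 1 memory array lay far from the other 3 ex vivo memory arrays, where chance gives about 1 in 20 groups. On memory array 1 Hacd1 was at 4.25 (median of the 4 arrays 2.91), Ube2c at 6.69 (median 4.45) and Klf1 at 6.76 (median 5.23), all above the other arrays. On memory array 2 Ecm1 was at 5.90 (median 6.61), below the others, and Dhrs3 at 4.06 (median 3.87), above them. On memory array 3 Klrk1 was at 6.53 (median 7.21) and Gzmb at 6.37 (median 7.29), both below the others. On memory array 4 Cdh1 was at 7.47 (median 7.07).

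The memory minus naive difference changed between ex vivo and cultured cells in limma's test of the difference itself for 12 named genes. Ex vivo minus IL-7, the difference was 3.79 for Lta, 3.97 for Ecm1, 3.83 for D630039A03Rik, 2.37 for Pde5a, 2.33 for Olfml3 and -1.91 for Xdh. Ex vivo minus IL-4 and IL-7, it was 2.35 for Klrk1, -1.90 for Oas3, 3.14 for Ptpn3, 1.84 for Papss2, 1.57 for Dhrs3 and 2.01 for H2-Q2. Both sets share the 6 ex vivo arrays.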

How the results depend on the processing

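The 244 autosomal genes past the test ex vivo became 568 without the array memory in medium replicate 2, 481 with array weights, and 104 to 219 without 1 of the 6 ex vivo arrays. With memory array 3 as the only memory array there were 52. The other settings left that count within 1.5 times: 227 with the filter at the 60th percentile, 360 in a fit of the 6 ex vivo arrays alone and 298 with the replicate number as a block, 176 of them shared with the 244. Centring each array on its median shifted the median difference of all genes by -0.08 and gave 110 higher and 160 lower genes. For the change of the difference against IL-7, 7 genes passed, against 16 with the mean of all probe sets of a gene, 13 after quantile normalisation, 120 without memory in medium replicate 2, 4 with the replicate block, 266 with array weights, 18 with cell type and replicate number as a random block, 3 with memory array 3 alone, and 2 to 14 without 1 array. Against IL-4 and IL-7, 6 passed, against 2 with the filter at the 60th percentile, the probe set of highest variance, quantile normalisation, the replicate block or the Gapdh 3' minus 5' difference as a covariate, 10 without memory in medium replicate 2, 1 with array weights, and 1 to 20 without 1 array. With memory array 3 alone limma called 0, and 463 genes had an unadjusted p under 0.05. The fit with memory array 3 alone uses fewer samples, and for the other settings the cause was not tested. Among the 115 named genes, none of the 65 that passed changed sign under these alternatives. The named genes that did not pass counted as reversed only if called in the opposite direction, and none was. A change of sign without a call was not counted for them. Of 65 that passed, 29 passed in each of the 6 fits that left out 1 ex vivo array and 36 missed the threshold in at least 1. With the replicate block 18 named genes dropped below the threshold and 3 passed newly. The fit with memory array 3 alone and that with a random block were chosen after seeing the data. With 2 naive arrays the calls rest on the spread pooled over all groups, and values near 4.06 are close to background, so fold changes of dim genes are uncertain.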

Other observations

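The autosomal genes with the widest range over the 4 ex vivo memory arrays included several known from red cells and their precursors, besides Slc4a1 and Jchain. Cd24a, a surface protein of immature blood cells, was at 10.16, 6.39, 7.43 and 7.42 on memory arrays 1 to 4 and at 8.92 and 8.94 on the naive arrays. Car2, a carbonic anhydrase of red cells, was at 9.74, 6.31, 7.24 and 7.31 on the memory arrays. Trim10, a gene of red cell development, was at 7.89, 5.08, 5.92 and 5.86, Tmcc2 at 8.19, 5.29, 6.97 and 6.19, and Cldn13 at 7.65, 4.59, 5.20 and 5.15. Memory array 1 was the highest and array 2 the lowest memory array for all 5. Slc23a3 had another order, at 6.20, 5.58, 7.16 and 8.51.

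Between the 2 naive arrays the widest gaps were those of Ifitm3, an interferon-induced membrane protein, at 5.30 and 8.01, Armh2 at 3.07 and 5.54, Tbrg3 at 6.34 and 4.13, and Lypd6b at 9.37 and 7.25. Naive array 2 was thus the higher for Ifitm3, as it was for Ifit1 and Oasl1.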
